A study of Mus musculus with 6 samples.

Results

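The genes described here are 10 genes of the blood-nerve barrier and of endothelial cells, chosen by name from the 24015 genes in the count tables. *Cldn5*, *Cldn1*, *Ocln* and *Tjp1* encode tight junction proteins, *Slc2a1* and *Mfsd2a* encode transporters, and *Pecam1*, *Kdr*, *Flt1* and *Tek* encode surface proteins of endothelial cells. All 10 were among the 11371 genes with enough reads to be tested. The 2 genotypes were control mice and mice without Rnf40, a subunit of the ligase that monoubiquitinates histone H2B, in Schwann cells, and the libraries were made from their sciatic nerves. Control mice were Rnf40 fl/fl without Cre, and *Rnf40ΔSC* mice were Rnf40 fl/fl with the *Dhh::Cre* transgene, so both genotypes carried the floxed alleles. According to the labels all mice were on a mixed 129SvJ/C57Bl/6J background and 14 days old. Each genotype had 3 libraries, and each library was made from a pool of 3 nerves. *Dhh::Cre* is expressed in the Schwann cell lineage, whereas the RNA came from whole nerve and so also from endothelial, perineurial and other cells.

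The endoneurium is shielded from blood by the endothelium of its capillaries and from the surrounding tissue by the perineurium, a sleeve of flattened cells. In both layers tight junctions seal the cleft between neighbouring cells, with claudins and occludin as the sealing proteins in the membrane and ZO proteins as their anchor to actin. Transporters carry glucose and other nutrients across the sealed layers, and receptors for VEGF and angiopoietins maintain the vessels.

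The libraries held 1317167, 1992622 and 2468765 counted reads in control replicates 1, 2 and 3 and 2184268, 1459387 and 2186710 in *Rnf40ΔSC* replicates 1, 2 and 3. Values are given as CPM, counts divided by library size, after TMM scaling, a correction for differences in library composition, and 1 read stood for 0.414 to 0.823 CPM. *Rnf40* itself had 67.5, 65.5 and 73.6 CPM in control and 46.8, 46.9 and 48.8 CPM in *Rnf40ΔSC* libraries. All *Rnf40ΔSC* libraries were thus below all control libraries, as labelled, although counts over the whole gene also include reads outside the floxed exons and reads from cells without Cre. The *Rnf40ΔSC* libraries differed among themselves in genes of skeletal muscle. The summed level of 15 muscle genes was 4936, 3772 and 2799 CPM in control replicates 1 to 3, but 104, 264 and 3487 CPM in *Rnf40ΔSC* replicates 1 to 3, and list counts that change without *Rnf40ΔSC* replicate 3 are given with and without it. Each of 28 endothelial marker genes had reads in every library. Of 7 lymphatic markers *Ccl21a* had 0 reads and *Prox1* between 0 and 3 reads per library, and the other 5 had 10 or more reads in every library.

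Most of the barrier and endothelial genes were lower in *Rnf40ΔSC* nerves, and *Tjp1* was higher. A gene counted as called when the p of the edgeR quasi-likelihood test, adjusted after Benjamini and Hochberg over all 11371 genes, was at most 0.05. *Cldn5*, *Cldn1*, *Slc2a1*, *Mfsd2a*, *Pecam1* and *Kdr* were called lower, that is 6 of 10 genes, where 16.2% of all tested genes were called lower. *Tjp1* was the 1 gene called higher, where 15.4% of all tested genes were, and *Ocln*, *Flt1* and *Tek* were not called. In either direction 7 of the 10 genes and 31.6% of all tested genes were called. With 2 further limits used in the study, a log2 fold change of 0.8 or more in size and 20 or more normalized counts on average, *Cldn5* and *Mfsd2a* were called lower (5.05% of all tested genes) and 0 of the 10 genes higher (3.73%); *Tjp1*, at 0.47, was under the fold limit. All *Rnf40ΔSC* libraries lay below all control libraries for 6 genes, *Cldn5*, *Ocln*, *Slc2a1*, *Mfsd2a*, *Pecam1* and *Kdr*, as for 21.6% of all tested genes. They lay above for *Tjp1*, as for 22.0% of all tested genes. The median log2 fold change of the 10 genes was -0.53, beside -0.0026 for all tested genes. In RNA of whole nerve, fewer cells of a type and less RNA per cell cannot be told apart.

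**Figure D1:**
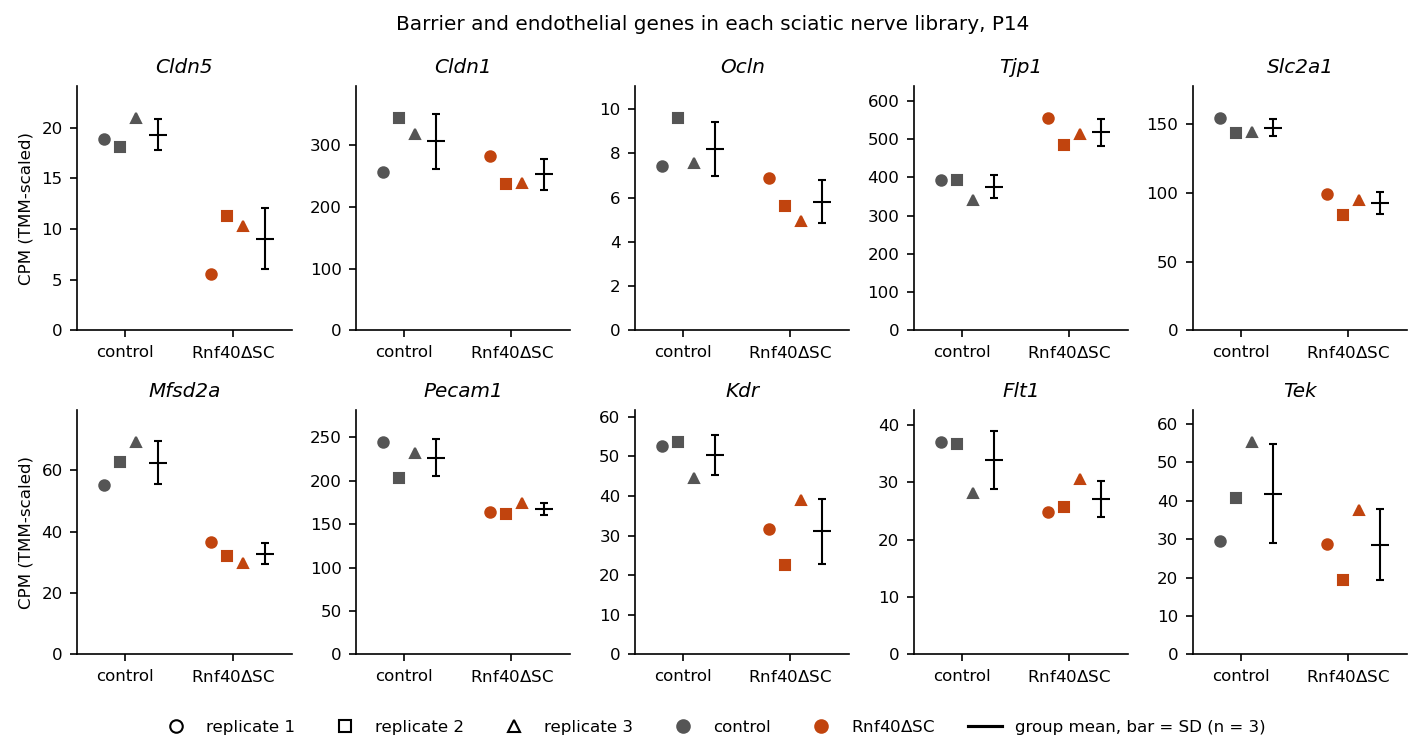
Each point is the level of a gene in 1 library, in CPM after TMM scaling on an axis that starts at 0, with circles, squares and triangles for replicates 1, 2 and 3 and black marks for the mean ± SD of 3 libraries. Control libraries are grey and *Rnf40ΔSC* libraries orange; the genotypes are separate in 7 panels and overlap for *Cldn1*, *Flt1* and *Tek*.

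Levels were compared between genes only after division by the exon length of the gene, as CPM per kb. In control nerves *Cldn1* stood highest, with 94.3 ± 13.8 CPM per kb (SD, n = 3). *Pecam1*, *Slc2a1* and *Tjp1* followed at 52.5, 51.8 and 51.0 CPM per kb and did not differ beyond the spread of their libraries. *Mfsd2a* (27.7 CPM per kb) and *Cldn5* (13.7 CPM per kb) were each separate from their neighbours in this order. *Tek* and *Kdr* overlapped at 8.89 and 6.92 CPM per kb, above *Flt1* at 2.93 and *Ocln* at 1.94 CPM per kb. In *Rnf40ΔSC* nerves *Tjp1*, at 70.4 CPM per kb, overlapped with *Cldn1* at 77.8 and was separate from *Pecam1* at 38.7 and *Slc2a1* at 32.5 CPM per kb. *Cldn5*, at 6.41 CPM per kb, now overlapped with *Tek* at 6.07, and *Tek* with *Kdr* at 4.27 CPM per kb.

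*Cldn5* encodes the main claudin of endothelial tight junctions and lies at chr16:18776940-18778353 on the plus strand of mm9. It had 18.9, 18.1 and 21.0 CPM in control libraries and 5.58, 11.2 and 10.3 CPM in *Rnf40ΔSC* libraries, from 13 to 47 reads per library. Every *Rnf40ΔSC* library was below every control library, and replicate 1 was the lowest. The mean was 19.3 ± 1.49 CPM in control and 9.06 ± 3.05 CPM in *Rnf40ΔSC* nerves (SD, n = 3), a log2 fold change of -1.12 (SE 0.28, 95% interval -1.69 to -0.56, edgeR adjusted p = 0.00181). Of the 10 genes it had the lowest log2 fold change, but without *Rnf40ΔSC* replicate 1 it was at -0.84, beside -1.03 for *Mfsd2a*.

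*Cldn1* (chr16:26356728-26371927, minus strand) encodes a claudin of epithelia that in nerve marks the perineurium. It had 257, 344 and 317 CPM in control and 282, 237 and 239 CPM in *Rnf40ΔSC* libraries. Control replicate 1 lay below *Rnf40ΔSC* replicate 1, so the genotypes overlapped. Its log2 fold change of -0.28 (SE 0.10, edgeR adjusted p = 0.0334) was near the threshold. The call was lost with DESeq2 (adjusted p = 0.108) and without control replicate 2 (edgeR adjusted p = 0.235), control replicate 3 (0.155), *Rnf40ΔSC* replicate 2 (0.117) or *Rnf40ΔSC* replicate 3 (0.0712), within a range of 0.00629 to 0.939 over all alternatives.

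*Ocln* (chr13:101266462-101322673, minus strand) encodes occludin, a membrane protein of the tight junction strand. Its 7.41, 9.61 and 7.59 CPM in control and 6.87, 5.62 and 4.97 CPM in *Rnf40ΔSC* libraries stood for only 9 to 17 reads per library. All *Rnf40ΔSC* libraries were below all control libraries, but by few reads. The log2 fold change of -0.49 had a 95% interval from -1.23 to 0.24 (edgeR adjusted p = 0.322), so that no difference was detected with these reads.

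*Tjp1* (chr7:72441051-72516125, minus strand) encodes ZO-1, the scaffold under tight junctions, and is made by many cell types besides endothelium. It had 394, 392 and 341 CPM in control libraries and 556, 485 and 514 CPM in *Rnf40ΔSC* libraries. Every *Rnf40ΔSC* library was above every control library. The mean rose from 375 ± 30.2 to 518 ± 35.5 CPM (SD, n = 3), a log2 fold change of 0.47 (SE 0.09, 95% interval 0.28 to 0.65, edgeR adjusted p = 0.000122), opposite in sign to the other 9 genes.

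*Slc2a1* (chr4:118781316-118809935, plus strand) encodes the glucose transporter GLUT1 of barrier endothelium and perineurium. It had 155, 144 and 144 CPM in control and 99.2, 83.7 and 95.2 CPM in *Rnf40ΔSC* libraries. The genotypes were separate, with little spread within either. The mean went from 148 ± 6.16 to 92.7 ± 8.01 CPM (SD, n = 3), a log2 fold change of -0.66 (SE 0.11, edgeR adjusted p = 6.48e-06). A stretch of 105 exon bases overlaps the antisense gene *Gm12868*, and as the strand setting of the counting was not given in the sources used here, reads from this stretch cannot be assigned to either strand.

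*Mfsd2a* (chr4:122624093-122638431, minus strand) encodes a lysophospholipid transporter that keeps transcytosis low in barrier endothelium of the brain. It had 55.2, 62.7 and 69.2 CPM in control and 36.5, 31.9 and 29.8 CPM in *Rnf40ΔSC* libraries. No library of one genotype reached the range of the other. The mean went from 62.4 ± 7.02 to 32.7 ± 3.43 CPM (SD, n = 3), with a log2 fold change of -0.94 (SE 0.16, 95% interval -1.26 to -0.63, edgeR adjusted p = 9.6e-06).

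*Pecam1* (chr11:106515531-106611942, minus strand) encodes the adhesion molecule CD31 at contacts between endothelial cells. It had 245, 203 and 232 CPM in control and 164, 162 and 175 CPM in *Rnf40ΔSC* libraries. The genotypes did not overlap. The mean went from 227 ± 21.0 to 167 ± 6.74 CPM (SD, n = 3), with a log2 fold change of -0.44 (SE 0.10, edgeR adjusted p = 0.000646).

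Receptors of vascular growth factors differed in how clearly the genotypes were separated. *Kdr* (chr5:76328852-76374483, minus strand) encodes VEGFR2, the main signalling receptor for VEGF-A, and had 52.7, 53.7 and 44.6 CPM in control and 31.8, 22.5 and 38.9 CPM in *Rnf40ΔSC* libraries. All *Rnf40ΔSC* libraries were below all control libraries, replicate 2 most of all. The mean went from 50.3 ± 4.96 to 31.1 ± 8.22 CPM (SD, n = 3), with a log2 fold change of -0.66 (SE 0.18, edgeR adjusted p = 0.00396). *Flt1* (chr5:148373180-148537587, minus strand) encodes VEGFR1, which binds VEGF-A and limits its signal, and had 37.1, 36.7 and 28.1 CPM in control and 24.9, 25.6 and 30.6 CPM in *Rnf40ΔSC* libraries. Control replicate 3 lay below *Rnf40ΔSC* replicate 3, and the log2 fold change of -0.30 (SE 0.19, 95% interval -0.69 to 0.08) did not pass the test (edgeR adjusted p = 0.238). *Tek* (chr4:94405980-94541667, plus strand) encodes the angiopoietin receptor TIE2 and had 29.6, 40.7 and 55.3 CPM in control and 28.8, 19.4 and 37.7 CPM in *Rnf40ΔSC* libraries. The genotypes overlapped, control libraries were widely spread, and the log2 fold change of -0.56 (SE 0.23) missed the threshold (edgeR adjusted p = 0.0657). Without *Rnf40ΔSC* replicate 3 the log2 fold change of *Tek* was -0.81 and passed (edgeR adjusted p = 0.00376), and it also passed without control replicate 1 (-0.73, adjusted p = 0.0134). It was smaller in size without control replicate 3 (-0.29, adjusted p = 0.426) or *Rnf40ΔSC* replicate 2 (-0.37), with adjusted p values within a range of 0.00376 to 0.426 over all alternatives.

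**Figure D2:**
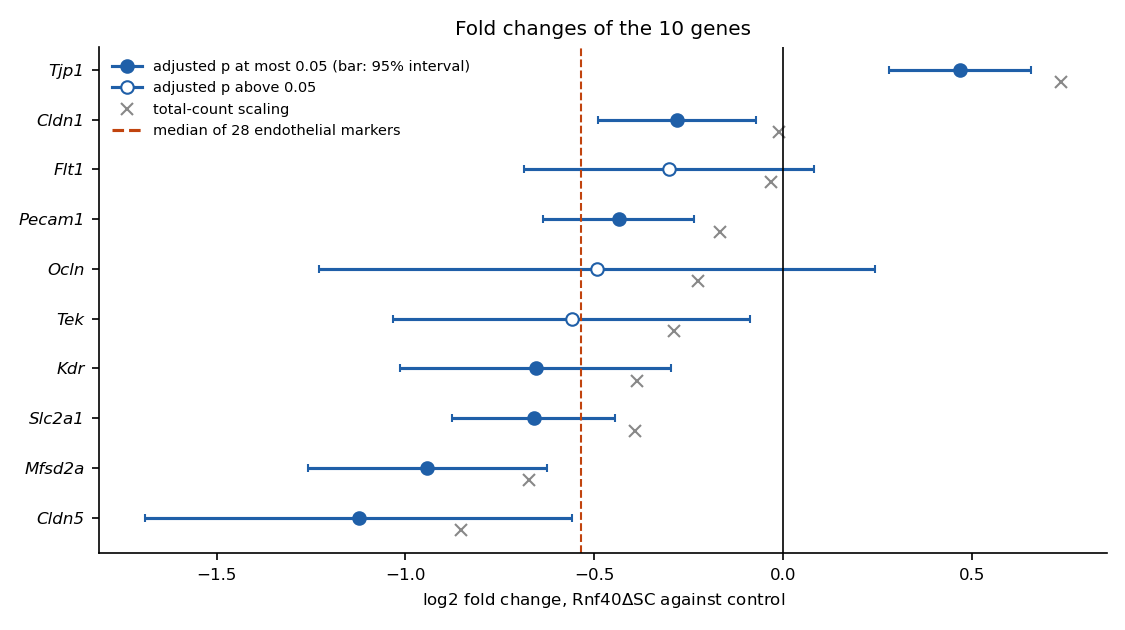
The log2 fold change between *Rnf40ΔSC* and control nerves is drawn on the x axis for each gene, with the 95% interval from edgeR's fit as a bar, filled points for an adjusted p of at most 0.05, crosses for scaling by total counts, and a dashed line at -0.54 for the median of 28 endothelial markers. *Cldn5* and *Mfsd2a* lie farthest to the left, and *Tjp1* is the only point above 0 with either scaling.

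Calls depended in part on the scaling of the libraries. Scaling by total counts in place of TMM moved the log2 fold change of all genes by 0.27 on median, and 880 genes were then called lower and 3766 higher, so that 18.9% of the calls were lower calls instead of 51.2%. Under this scaling *Cldn5* (log2 fold change -0.85), *Slc2a1* (-0.39) and *Mfsd2a* (-0.67) were still called lower and *Tjp1* (0.74) higher. *Pecam1* (-0.17, edgeR adjusted p = 0.188), *Kdr* (-0.39, adjusted p = 0.0815) and *Cldn1* (-0.012, adjusted p = 0.939) lost their call. The median of the 10 genes was -0.26, while that of all genes was 0.27.

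Promoter sequences were taken from a table of RefSeq promoters, build GRCm38.p6, that held 9 of the 10 genes and not *Pecam1*. Each window of 300 bases, from 250 before to 50 after the transcription start, matched mm9 exactly and at a single place. Those of 4 genes are printed because they belong to a growth factor receptor called lower, the genes with the lowest log2 fold changes, and the gene called higher. They lie at chr5:76374431-76374730 on the minus strand (*Kdr*), chr16:18776690-18776989 on the plus strand (*Cldn5*), chr4:122638382-122638681 on the minus strand (*Mfsd2a*) and chr7:72516081-72516380 on the minus strand (*Tjp1*) of mm9. Each is written 5′ to 3′ along the strand of the gene, with the letters GGAA, the core of sites for ETS transcription factors, in capitals on either strand, so that TTCC marks a match on the other strand.
Kdr: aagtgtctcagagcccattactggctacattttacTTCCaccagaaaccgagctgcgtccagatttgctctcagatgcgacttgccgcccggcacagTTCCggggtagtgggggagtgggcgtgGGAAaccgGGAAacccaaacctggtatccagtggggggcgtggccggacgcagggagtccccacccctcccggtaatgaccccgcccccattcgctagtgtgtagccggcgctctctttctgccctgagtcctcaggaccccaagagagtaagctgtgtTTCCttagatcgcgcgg
Cldn5: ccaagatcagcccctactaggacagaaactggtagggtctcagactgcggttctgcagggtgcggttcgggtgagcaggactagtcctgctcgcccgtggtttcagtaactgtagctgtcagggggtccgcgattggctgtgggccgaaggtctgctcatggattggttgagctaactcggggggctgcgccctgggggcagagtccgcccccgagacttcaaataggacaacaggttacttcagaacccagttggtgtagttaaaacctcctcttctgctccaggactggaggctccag
Mfsd2a: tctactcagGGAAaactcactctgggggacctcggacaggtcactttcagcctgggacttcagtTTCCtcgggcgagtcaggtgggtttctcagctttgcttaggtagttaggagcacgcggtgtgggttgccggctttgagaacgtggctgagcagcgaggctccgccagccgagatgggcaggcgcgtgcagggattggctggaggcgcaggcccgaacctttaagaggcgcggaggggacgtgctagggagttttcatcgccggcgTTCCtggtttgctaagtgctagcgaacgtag
Tjp1: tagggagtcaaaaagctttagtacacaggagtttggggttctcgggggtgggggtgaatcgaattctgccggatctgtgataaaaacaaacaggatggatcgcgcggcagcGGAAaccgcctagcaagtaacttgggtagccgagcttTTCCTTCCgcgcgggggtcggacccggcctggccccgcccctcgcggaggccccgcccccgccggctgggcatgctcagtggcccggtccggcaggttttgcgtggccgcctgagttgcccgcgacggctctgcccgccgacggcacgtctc
The window of *Kdr* held 5 matches to GGAA, those of *Mfsd2a* and *Tjp1* 3 each, and that of *Cldn5* 0. Among 32851 RefSeq promoter windows of the same length 96% held at least 1 match, with a median of 3, so these short letters were common. Further letters searched were CCGCCC, the GC box, and ACGTG, the core of the hypoxia response element, both on either strand, and TATAAA on the strand of the gene. CCGCCC occurred in 35.7% of all windows and had 2 matches each in *Kdr* and *Tjp1*, 1 in *Cldn5* and 0 in *Mfsd2a*. Among the other genes it had 3 matches in *Flt1*, 2 each in *Slc2a1* and *Cldn1*, 1 in *Ocln* and 0 in *Tek*. ACGTG occurred in 19.6% of all windows, with 2 matches in *Mfsd2a*, 1 each in *Tjp1* and *Slc2a1*, and 0 in *Kdr* and *Cldn5*. TATAAA occurred in 8.32% of all windows and, among the 9 genes, in those of *Slc2a1* and *Flt1*.

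Some other endothelial markers were called lower, as were most of the 10 genes. The summed level of 28 endothelial markers, none of them among the 10 genes, was 2254, 1952 and 2130 CPM in control libraries and 1452, 1407 and 1704 CPM in *Rnf40ΔSC* libraries. All *Rnf40ΔSC* libraries were below all control libraries in this sum, replicate 3 least so. By edgeR 12 of the 28 markers were called lower and 0 higher (0 higher also at an unadjusted p under 0.05, with DESeq2 and with total-count scaling, which called 7 and 6 lower), and their median log2 fold change was -0.54. *Sox7* (log2 fold change -1.29), *Ecscr* (-1.21), *Nos3* (-1.09) and *Eng* (-0.74) had the lowest values among those called, and *Cd34*, the most abundant, had -0.58. Which cells gave the reads of these markers, *Ecscr* and *Cd34* included, is not known from counts of whole nerve. *Cdh5*, which encodes the endothelial cadherin of adherens junctions, had 276, 259 and 303 CPM in control and 177, 187 and 224 CPM in *Rnf40ΔSC* libraries. These values did not overlap, and the log2 fold change of *Cdh5* was -0.51 (SE 0.10, edgeR adjusted p = 0.000119; 0.0598 with scaling by total counts). *Tie1* had a log2 fold change of -0.61 (edgeR adjusted p = 0.0218), but was not called with total-count scaling, with DESeq2 (adjusted p = 0.12) or without any 1 of control replicates 1 and 3 and *Rnf40ΔSC* replicates 1 and 2 (edgeR adjusted p from 0.0791 to 0.12). *Emcn* had a log2 fold change of -0.24 (edgeR adjusted p = 0.395) that turned to 0.034 with scaling by total counts and to 0.0097 without *Rnf40ΔSC* replicate 1. *Nos3* lost its call with DESeq2 (adjusted p = 0.0648) and without control replicate 3 (edgeR adjusted p = 0.0788). The part of the lower endothelial sum in the values of the 10 genes was not tested by the fit across all genes.

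For each library the reads of a gene were therefore also divided by the summed reads of 10 endothelial genes outside the list (*Cdh5*, *Tie1*, *Emcn*, *Eng*, *Esam*, *Egfl7*, *Robo4*, *Icam2*, *Ptprb* and *Cd93*), a ratio on which the scaling of libraries has no bearing. The sums were 1204, 1477 and 2218 reads in control and 1574, 1069 and 1912 reads in *Rnf40ΔSC* libraries. Differences in the log2 ratio were tested with an exact two-sided permutation test, whose smallest possible p with 3 against 3 libraries is 0.1. *Cldn5* had 1.91, 2.17 and 2.12 reads per 100 endothelial reads in control and 0.826, 1.68 and 1.31 in *Rnf40ΔSC* libraries. *Mfsd2a* had 5.56, 7.52 and 6.99 per 100 in control and 5.40, 4.77 and 3.77 in *Rnf40ΔSC* libraries. For these 2 genes, *Cldn5* and *Mfsd2a*, all *Rnf40ΔSC* libraries were below all control libraries, as for 5.94% of all tested genes. However, *Mfsd2a* of *Rnf40ΔSC* replicate 1 came close to control replicate 1. With *Cdh5* alone or all 28 endothelial markers as the denominator it lay above control replicate 1, so the genotypes overlapped. *Mfsd2a* had 85 reads beside 412 *Cdh5* reads in *Rnf40ΔSC* replicate 1 and 67 beside 335 in control replicate 1. Beside the 28 markers it had 36.5 per 1452 CPM and 55.2 per 2254 CPM in these libraries. *Cldn5* was at 59.2% of control per endothelial read (log2 difference -0.76, exact permutation p = 0.1; -0.47 without *Rnf40ΔSC* replicate 1) and *Mfsd2a* at 69.2% (log2 difference -0.53, exact permutation p = 0.1; -0.39 without *Rnf40ΔSC* replicate 3). *Tjp1* had 39.7, 47.0 and 34.4 reads per 100 endothelial reads in control and 82.2, 72.6 and 65.0 in *Rnf40ΔSC* libraries. All *Rnf40ΔSC* libraries were above all control libraries, as for 41.8% of all tested genes, and the mean was 182% of control (log2 difference 0.86, exact permutation p = 0.1).

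The other 7 genes overlapped between genotypes in this ratio. *Slc2a1* was at 82.6% of control (log2 difference -0.28, exact permutation p = 0.2), with a range of -0.36 to -0.16 under alternatives. *Kdr* was at 79.6% of control (log2 difference -0.33, exact permutation p = 0.3), with a log2 difference of -0.16 without *Rnf40ΔSC* replicate 2. *Pecam1* had 24.7, 24.4 and 23.4 reads per 100 endothelial reads in control and 24.3, 24.2 and 22.1 in *Rnf40ΔSC* libraries, at 97.4% of control (log2 difference -0.038, exact permutation p = 0.5). It had the least spread of the 10 genes within control libraries. *Tek* was at 89.7%, *Ocln* at 93.4%, *Flt1* at 105% and *Cldn1* at 109% of control, with exact permutation p values from 0.5 to 0.8. The direction of these 4 ratios and of that of *Pecam1* turned in part of the alternatives, among them the omission of 1 library. *Cldn1* is made mainly by perineurial cells, so its ratio to endothelial reads compares different cell types. For all other genes, *Cldn5* and *Mfsd2a* included, the cells that gave the reads are not known from counts of whole nerve. Their ratios may thus also compare different cell types.

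**Figure D3:**
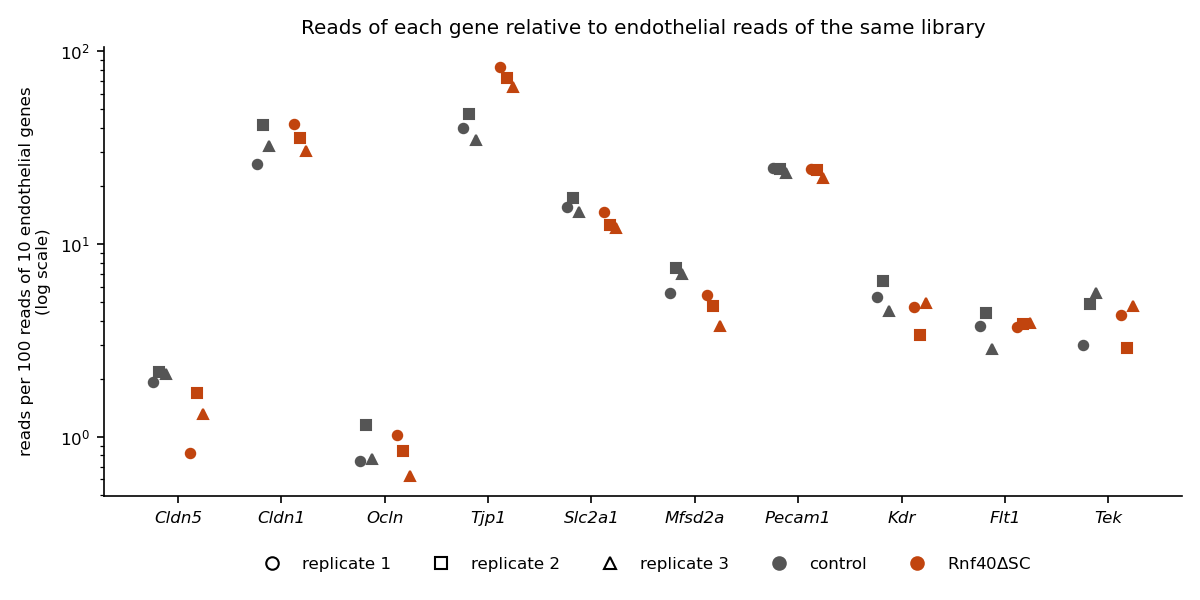
The y axis, a log scale, gives the reads of each gene per 100 reads of 10 other endothelial genes in the same library, with grey points for control and orange points for *Rnf40ΔSC* libraries and a symbol for each replicate. The genotypes are separate for *Cldn5*, *Mfsd2a* and *Tjp1*, and the 6 points of *Pecam1* lie between 22.1 and 24.7. For *Mfsd2a* the genotypes overlap with *Cdh5* alone or all 28 endothelial markers as the denominator.

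Junction genes outside the 10 went in both directions. Of 35 further claudins, ZO proteins and other junction genes 18 could be tested, 6 were called lower and 5 higher, and 6 claudins had 0 reads in every library. The number called lower was 5 without *Rnf40ΔSC* replicate 3, 4 with DESeq2 and 3 with total-count scaling, each with 5 called higher. Their median log2 fold change was -0.18, which turned to 0.09 with scaling by total counts. *Cldn19*, a claudin of Schwann cells and the most abundant gene of this list, had a log2 fold change of -1.95 (edgeR adjusted p = 1.17e-20), *Cldn12* of -0.94, and *Mllt4*, which encodes the junction scaffold afadin, of -0.78. *Cldn22* was called lower at -1.36 (edgeR adjusted p = 0.039) from 3 to 11 reads per library, and lost the call under 7 of 11 alternatives, among them DESeq2 (adjusted p = 0.203) and the fits without control replicate 1 (edgeR adjusted p = 0.175), control replicate 2 (0.13), *Rnf40ΔSC* replicate 1 (0.154) or *Rnf40ΔSC* replicate 3 (0.173). *Cldn3* had 1, 2 and 0 reads in control and 14, 10 and 12 reads in *Rnf40ΔSC* libraries, and *Marveld3*, which encodes a relative of occludin, had 6, 4 and 3 against 43, 34 and 52 reads. Both were near the detection limit in control nerves and present in all *Rnf40ΔSC* libraries. *Jam3* (log2 fold change 0.98) and *Magi3* (0.94), a scaffold gene like *Tjp1*, were also called higher.

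Of 26 further genes for transport, caveolae and barrier formation, 21 were tested, 11 called lower and 0 higher by edgeR (0 higher also unadjusted and with DESeq2), with a median log2 fold change of -0.49. The calls were 6 lower and 1 higher with total-count scaling (median -0.22), 9 lower with DESeq2 and 13 lower without *Rnf40ΔSC* replicate 3. *Fabp4* of this list, which was not called, is also in the adipocyte list. *Slco1a4*, an organic anion transporter gene of barrier endothelium, had 14.8, 13.6 and 15.6 CPM in control and 7.73, 6.25 and 5.38 CPM in *Rnf40ΔSC* libraries. It was lower in every *Rnf40ΔSC* library, with a log2 fold change of -1.18 (SE 0.31, edgeR adjusted p = 0.00319). The caveolar genes *Cav2* (log2 fold change -1.0) and *Cav1* (-0.89), both also expressed by other cells of the nerve, and the receptor gene *Lrp1* (-0.86) were called lower as well. Of 27 genes for angiogenic ligands and receptors, 3 of which are also endothelial markers, 24 were tested, with 6 called lower, 1 higher and a median log2 fold change of -0.42. With total-count scaling 5 were called lower and 2 higher, and 9 lower and 2 higher without *Rnf40ΔSC* replicate 3. *Vegfa*, the ligand of the receptors encoded by *Kdr* and *Flt1*, had 71.6, 62.7 and 70.5 CPM in control and 38.2, 36.2 and 44.7 CPM in *Rnf40ΔSC* libraries. The genotypes were separate, at a log2 fold change of -0.77 (SE 0.15, edgeR adjusted p = 8.12e-05). *Sema3e* (log2 fold change -1.68), *Vegfb* (-0.87) and *Acvrl1* (-0.83) were called lower, and *Plxnd1*, which encodes the receptor of semaphorin 3E, higher (0.44). Its value was 0.26 without *Rnf40ΔSC* replicate 3, which had 430 CPM beside 306 and 302 CPM in replicates 1 and 2. Without control replicate 2 *Vegfb* was not called (edgeR adjusted p = 0.0621). The angiopoietin genes for the ligands of TIE2 were not called: *Angpt1* had 5.76, 8.48 and 8.48 CPM in control and 3.86, 5.0 and 6.62 CPM in *Rnf40ΔSC* libraries. *Angpt2* had 28.8, 32.2 and 22.3 CPM against 20.6, 16.9 and 22.8 CPM, and both overlapped between genotypes. Of 8 endothelial adhesion molecules 6 were tested, *Cd34* and *Mcam* (-0.32) were called lower, and *Ackr1*, a chemokine receptor gene of venules, was called higher. *Cd34* and *Icam2* of this list are also among the endothelial markers above, so the call of *Cd34* is the same one. *Mcam* was not called without control replicate 1 (edgeR adjusted p = 0.0658), without *Rnf40ΔSC* replicate 1 (0.0646) or with total-count scaling (0.727). *Ackr1* had 74.9, 93.2 and 82.6 CPM in control and 172, 169 and 134 CPM in *Rnf40ΔSC* libraries. Every *Rnf40ΔSC* library was above every control library, at a log2 fold change of 0.91 (SE 0.12, edgeR adjusted p = 8.2e-08).

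**Figure D4:**
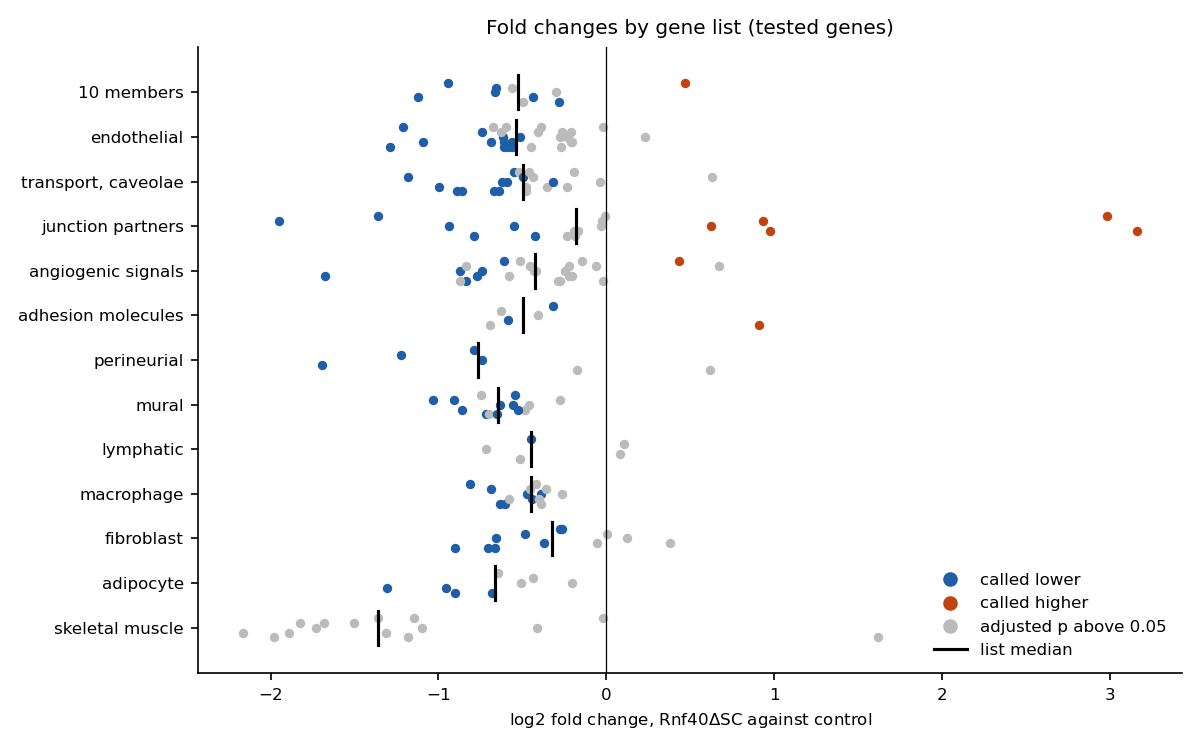
Each point is the log2 fold change (x axis) of 1 tested gene, in rows by gene list, coloured by the call at an adjusted p of at most 0.05, with a black line at the median of each list. Medians lie below 0 in all rows, at -0.53 for the 10 genes and -0.54 for endothelial markers, although that of junction partners turns to 0.09 with scaling by total counts; the point farthest to the right, *Cldn3*, is a fitted value that rests on 0 to 2 control reads.

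Markers of perineurial and mural cells were in part called lower. Of 8 perineurial markers 6 were tested and 4 called lower, with 0 called higher by edgeR (1 at an unadjusted p under 0.05 and 0 with DESeq2) and a median log2 fold change of -0.76. *Itgb4* (log2 fold change -1.69), the most abundant and also expressed by Schwann cells, *Msln* (-1.22), *Ntn4* (-0.79) and *Mpzl2* (-0.74) were those called. The call of *Ntn4* was lost with DESeq2 (adjusted p = 0.0544), with total-count scaling (edgeR adjusted p = 0.0613) and without *Rnf40ΔSC* replicate 1 (0.0522). Their summed level was 633, 722 and 714 CPM in control and 310, 281 and 325 CPM in *Rnf40ΔSC* libraries. *Itgb4* held the largest part of this sum, with means of 465 CPM in control and 144 CPM in *Rnf40ΔSC* nerves. All 8 perineurial markers had reads in every library, but *Kcnj13* had 5 to 11 and *Lypd2* 2 to 5 reads per library. Of 15 markers of mural cells, which wrap the vessels, 14 were tested, with 9 called lower (12 without *Rnf40ΔSC* replicate 3, 6 with total-count scaling), a median log2 fold change of -0.64 and *Pdgfrb* (-0.65) as the most abundant. Their summed level was 1611, 1291 and 1416 CPM in control and 860, 834 and 1095 CPM in *Rnf40ΔSC* libraries. *Des*, part of this sum, had 73.3, 74.0 and 49.5 CPM in control and 14.6, 13.1 and 85.7 CPM in *Rnf40ΔSC* libraries. Like the muscle genes it was highest by far in replicate 3 of the *Rnf40ΔSC* libraries. Of 7 lymphatic markers 5 were tested and *Reln*, the most abundant, was called lower (log2 fold change -0.45), though not with total-count scaling (edgeR adjusted p = 0.105), while 3 were called lower without *Rnf40ΔSC* replicate 3. Of the 4 not called, 2 had a log2 fold change above 0. *Reln* had a mean of 442 CPM in control nerves, whereas *Prox1* had 0 to 3 and *Ccl21a* 0 reads per library. The reads of *Reln* can therefore not be assigned to lymphatic cells, and no change of these cells is read from its call.

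Further cell types of the nerve pools are given by the same measures. For macrophages 7 of 14 tested markers were called lower (3 with DESeq2 and 2 with total-count scaling, where the median was -0.18), with a median log2 fold change of -0.45 and *Csf1r* as the most abundant. Summed macrophage levels ran from 554 to 620 CPM in control and from 410 to 423 CPM in *Rnf40ΔSC* libraries. For fibroblasts 8 of 12 were called lower (median -0.32, most abundant *Col3a1*), but 5 lower and 2 higher with total-count scaling (median -0.053), with sums of 53142 to 57637 CPM in control and 38505 to 40674 CPM in *Rnf40ΔSC* libraries. For adipocytes 4 of 8 were called lower (3 with total-count scaling and 3 without *Rnf40ΔSC* replicate 3; median -0.66, most abundant *Fabp4*), with sums of 921 to 1608 CPM and 735 to 964 CPM, which overlapped. For these other cell types 0 markers were called higher by edgeR with TMM scaling or by DESeq2, and 0 also at an unadjusted p under 0.05 except *Crabp2* of the perineurial list. With total-count scaling 2 fibroblast markers, 1 perineurial and 1 lymphatic marker were called higher. Of 15 muscle markers, with *Myh4* as the most abundant and none at 0 in every library, 0 were called in either direction by edgeR (0 unadjusted, 0 with DESeq2), and 14 were called lower without *Rnf40ΔSC* replicate 3. Without this library 6 of the 10 barrier and endothelial genes were called lower and 1 higher, where 1992 of all 11499 tested genes were called lower and 1915 higher, with *Tek* called in place of *Cldn1*, and 15 endothelial markers in place of 12. Of 8 red blood cell markers the 6 globin genes were at 0 in every library, although *Alas2* had 12 to 42 reads per library. Only uniquely mapped reads were counted, and whether globin RNA was absent was not tested. *Alas2*, the only marker tested, was not called (log2 fold change -0.65, edgeR adjusted p = 0.144). It was called lower without *Rnf40ΔSC* replicate 3 (-1.30, edgeR adjusted p = 0.00273), while its value was -0.28 without *Rnf40ΔSC* replicate 1. The part of these cell types in the levels of the 10 genes was not tested.

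**Figure D5:**
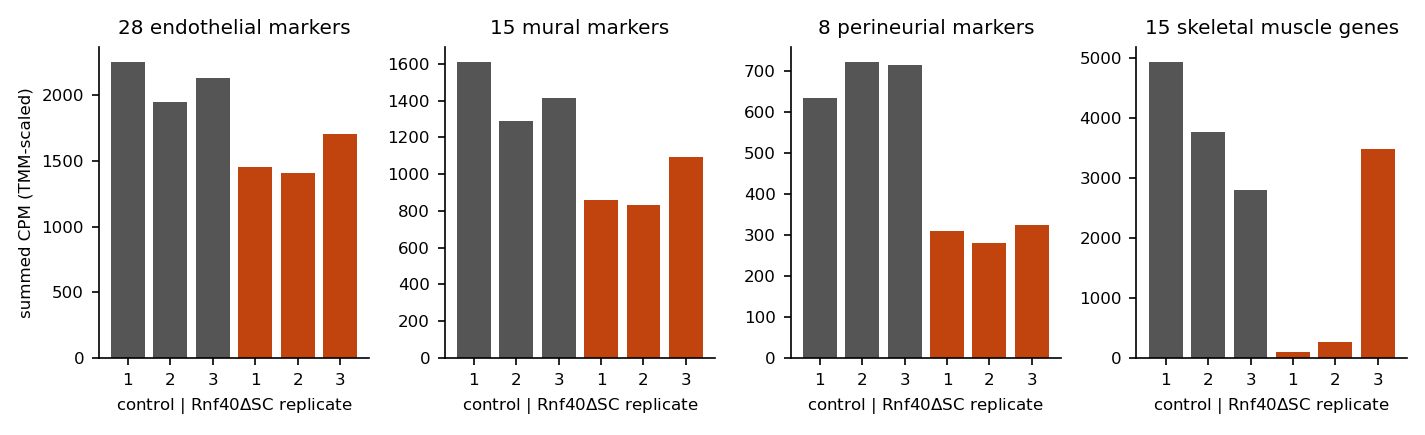
Bars give the summed level, in CPM after TMM scaling from 0, of 28 endothelial, 15 mural, 8 perineurial and 15 skeletal muscle genes in each library, grey for control and orange for *Rnf40ΔSC*, with the replicate number below. In the first 3 panels all *Rnf40ΔSC* bars are below all control bars, whereas in the muscle panel *Rnf40ΔSC* replicate 3 reaches 3487 CPM beside 104 and 264 CPM in replicates 1 and 2.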

How the data were processed

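Total RNA from pools of 3 sciatic nerves per library had been sequenced on an Illumina platform. The authors mapped reads to mm9 with TopHat and deposited raw counts of uniquely mapped reads per gene from HTSeq, as whole numbers without normalization. The submitters' processing notes also name Bowtie2 2.1.0 and mm10. Labels and methods differ in library kit (NEB Next Ultra or a directional kit) and in strain (129SvJ or C3H beside C57Bl/6J), alike for all libraries. Counting annotation and strand setting were not given in the sources used here.

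Tests used edgeR 4.0.16 in R 4.3.3 (filterByExpr, minimum count 10, TMM, robust quasi-likelihood fit, genotype as the only term, Benjamini-Hochberg adjustment over all tested genes). Standard errors and 95% intervals came from the same fit. Of the deposited rows, 0 named no gene. Replicates differed beyond sampling noise (chi-square per degree of freedom 1.78 to 5.21) and were kept as separate samples. Positions and exon lengths were taken from GENCODE vM1 on mm9, where all 10 symbols occurred once. The procedure was first tested on simulated counts, with 50 genes changed at each fold. It recovered 19 of them at 1.5-fold, 37 at 2-fold, 44 at 3-fold and 48 at 4-fold, with 7 false calls. Changes near 1.5-fold were thus often missed, and a gene not called may still differ.

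The 10 genes and all lists were chosen with earlier results of these data known. Named in the text are the 10 genes, *Rnf40*, *Cdh5*, *Tie1*, *Emcn*, up to 4 genes called lower and 4 called higher with the largest change in the endothelial, junction, transport, angiogenic, adhesion, perineurial and lymphatic lists, and the most abundant marker of each cell type. For other cell types only the latter is named. Results of 1 further list, of Schwann lineage markers, are not reported here. *Angpt1*, *Angpt2*, *Ccl21a*, *Prox1*, *Kcnj13*, *Lypd2*, *Crabp2* and *Des* were named after their values were seen. Alternatives changed scaling (RLE, total counts), tool (DESeq2 1.42.0), filter, replicate block, limits of the call, the endothelial denominator and each library in turn.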

Additional observations from a re-analysis of the deposited data

How the results depend on the processing

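Of 119 values of the log2 fold changes of the 10 genes under alternatives, 107 kept their direction and side of the threshold, 8 lost and 4 gained the call and 0 turned. The 8 were 6 of *Cldn1* and 1 each of *Pecam1* and *Kdr*, and the 4 were of *Tek*. Of 80 values of the log2 ratios, 78 moved by less than 1 SD, and *Pecam1* moved to 0.08 with *Cdh5* alone and to 0.039 with all endothelial markers as the denominator. Under alternatives the log2 ratio turned for *Pecam1* (-0.062 to 0.08), *Tek* (-0.43 to 0.054), *Ocln* (-0.26 to 0.1), *Flt1* (-0.095 to 0.22) and *Cldn1* (-0.035 to 0.3); the cause was not tested. Genes called lower, 1841, were 880 with total-count scaling, 1178 with DESeq2 and 574 with the limits of the study, and genes called higher, 1756, were 3766, 1110 and 424. Of the 10 genes, 3 were called lower with total-count scaling, and 2 lower and 0 higher with the limits of the study. Of 28 endothelial markers, 12 called lower became 6, 7 and 3 with total-count scaling, DESeq2 and the limits of the study. *Emcn* turned from -0.24 to 0.034 with total-count scaling, and with 1 library omitted at a time its value lay between -0.37 and 0.0097, above 0 without *Rnf40ΔSC* replicate 1. The limits of the study ask for more, and total-count scaling shifts every gene; the cause of the difference with DESeq2 was not tested. Replicate numbers did not pair the libraries (correlations of deviations -0.095, -0.015 and -0.062 for equal numbers). With the replicate block 1837 genes were called lower and 1727 higher, and *Tek* gained a call (edgeR adjusted p = 0.0207), as it did without a filter on low counts (0.0131). *Ocln* and *Cldn5* rest on the fewest reads, 9 to 47 per library.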
